A study of Mus musculus with 15 samples.

Results

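Interferon-stimulated genes are the antiviral genes that a cell switches on when interferon binds its surface receptors. Expression of 8 of them, Irf7, Isg15, Oasl2, Rsad2, Bst2, Ifit1, Ifit2 and Ifit3, was followed in jejunal epithelial cells of mice sensitized to peanut and challenged with it. The 8 genes were chosen by name, as common members of this response, out of 52844 annotated genes, and 8 of 8 passed the filter on low counts that kept 14968 genes for testing. They and all gene lists used below were chosen with earlier results of these data known.

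RNA was sequenced in bulk from epithelium shaken off the jejunum (the stretch of small intestine between duodenum and ileum) in CC027/GeniUnc mice, an inbred strain of the Collaborative Cross. The 15 libraries formed 5 groups of 3, and the labels used here give neither age nor sex. Sensitized mice had received 2 mg of crude peanut extract into the stomach each week for 3 weeks and 5 mg in week 4. Sensitized mice of the first group were left unchallenged (called sensitized controls here), and those of the other 3 groups received 12 mg of peanut extract into the stomach and were killed 30, 60 or 120 min later. Mice of the fifth group received PBS in place of peanut in each week and were not challenged. Neither PBS mice that were then challenged nor sensitized mice given a peanut-free gavage were analysed here, so peanut, gavage and handling cannot be told apart in any comparison with challenged mice.

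Type I interferons (the alpha and beta families) and type III interferons (the lambda family, to which intestinal epithelium responds) act through the kinases JAK1 and TYK2 on transcription factors that include STAT2 and IRF9. These bind the interferon-stimulated response element, a pair of GAAA runs set a few bases apart, in the promoters of their target genes. Interferon gamma, made mainly by T cells and natural killer cells, acts mainly through another element, the gamma-activated site. The products of the target genes block virus entry, translation, replication or release, and some of them, IRF7 among them, feed back to make more interferon.

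The promoters of the 8 genes were read first, because genes of this class are known to share a response element. RefSeq promoter windows of GRCm38.p6, from 250 bases before to 50 bases after the start of transcription, were found for 8 of 8 genes, 9 windows in all since Ifit2 has more than 1 start. The core GAAANNGAAA, searched on both strands, was present in 5 of 9 windows (55.6%), against 1131 of 32851 windows of all genes (3.44%). Every match lay before the start. The stretch of 60 bases around the matches is shown for these 5 genes in the direction of the gene, with the matched letters in capitals; a match on the opposite strand reads TTTCNNTTTC.
Isg15 (chr4:156200856-156200915, minus strand): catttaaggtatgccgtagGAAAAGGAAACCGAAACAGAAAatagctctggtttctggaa
Bst2 (chr8:71537565-71537624, minus strand): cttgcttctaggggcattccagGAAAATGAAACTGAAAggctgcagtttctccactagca
Rsad2 (chr12:26456538-26456597, minus strand): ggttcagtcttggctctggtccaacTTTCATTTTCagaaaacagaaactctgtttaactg
Ifit3 (chr19:34583365-34583424, plus strand): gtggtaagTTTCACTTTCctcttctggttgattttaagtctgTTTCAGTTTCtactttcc
Ifit1 (chr19:34640769-34640828, plus strand): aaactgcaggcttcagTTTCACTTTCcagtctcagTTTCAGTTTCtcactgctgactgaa
The Isg15 stretch carried 3 overlapping matches in a single run of capitals, and the Bst2 stretch carried 2 overlapping matches. Ifit3 and Ifit1, which lie in the same gene cluster on chromosome 19, carried 2 separate matches each on the opposite strand, and their capitals spell the same letters in the same order. Rsad2 carried 1 match. No match to these letters was present in the windows of Irf7, Oasl2 and Ifit2. Gene lists used further below also carried the core GAAANNGAAA. It was present in 13 of 22 windows (59.1%) of interferon gamma targets, 11 of 19 (57.9%) of interferon genes and 23 of 56 (41.1%) of other interferon-stimulated genes. For nucleic acid sensing it was 3 of 11 windows, for receptors and signalling 3 of 19 and for ISG15 conjugation 0 of 3. The gamma-activated site TTCNNNGAA, which reads the same on both strands, was matched once each in the windows of Bst2 and Ifit2, 2 of 9 windows, against 2726 of 32851 windows of all genes (8.30%). The Bst2 site starts 136 bases before the start of transcription and overlaps the first of its response element matches.

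The libraries held between 15661513 and 22691349 estimated counts, and mitochondrially encoded genes took 13.8% (120 min replicate 1) to 33.2% (60 min replicate 3) of them. Epithelial markers such as Epcam and Vil1 summed to between 13360 and 19930 CPM (counts scaled to a common library total) over the 11 genes of the list, against 26.3 to 281.7 CPM for 13 T cell markers, 24.3 to 375.5 CPM for 9 B cell and plasma cell markers and 22.3 to 101.7 CPM for 14 macrophage and dendritic cell markers. Sensitized control replicate 3 stood apart from its group in T cell markers, which summed to 281.7 CPM there against 70.9 and 81.2 CPM in the other sensitized controls, and 26.7% of its counts were mitochondrially encoded against 18.2% and 17.1% in the others. In 30 min replicate 1, which stood apart in stromal and endothelial markers, those 12 genes, collagen genes among them, summed to 245.1 CPM against at most 11.7 CPM in any other library. The T cell markers at 30 min summed to 267.0, 41.9 and 196.1 CPM in replicates 1, 2 and 3. At 60 min they summed to 166.0 CPM in replicate 3, against 67.6 and 40.5 CPM in the others of its group. The libraries called apart from here on are sensitized control replicate 3 and 30 min replicate 1. In such bulk samples, fewer cells of a type and less RNA per cell cannot be told apart.

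**Figure D1:**
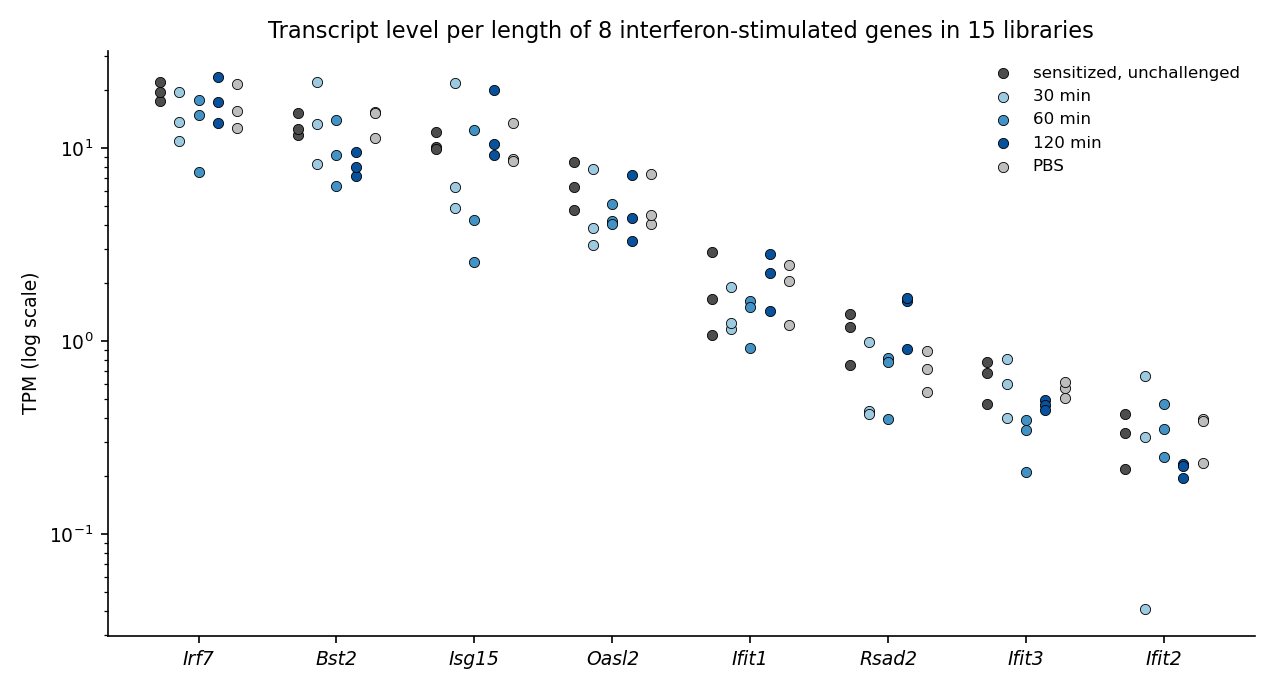
Level per transcript length (TPM, log axis) of the 8 genes in each of the 15 libraries, ordered by mean level, with 1 point per library and colours for the 5 groups. Irf7, Bst2, Isg15 and Oasl2 lie at or above 2.55 TPM in every library, and Ifit1, Rsad2, Ifit3 and Ifit2 at or below 2.90 TPM.

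Levels of different genes were compared as TPM, an abundance that is divided by transcript length and scaled to a common total. All 8 were expressed at low to modest levels. Over the 15 libraries Irf7 averaged 16.4 ± 4.36 TPM (SD), Bst2 11.9 ± 4.13, Isg15 10.3 ± 5.27, Oasl2 5.22 ± 1.72, Ifit1 1.75 ± 0.634, Rsad2 0.899 ± 0.409, Ifit3 0.519 ± 0.161 and Ifit2 0.315 ± 0.144 TPM. In this order each gene exceeded the next in 12 to 15 of 15 libraries, and only the step from Oasl2 to Ifit1 had no overlap between the ranges. The mean differences between Bst2 and Isg15, between Isg15 and Oasl2 and between Rsad2 and Ifit3 were smaller than the larger SD of the pair. All further levels of single genes are CPM after TMM scaling of the library sizes, which compares 1 gene between libraries.

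**Figure D2:**
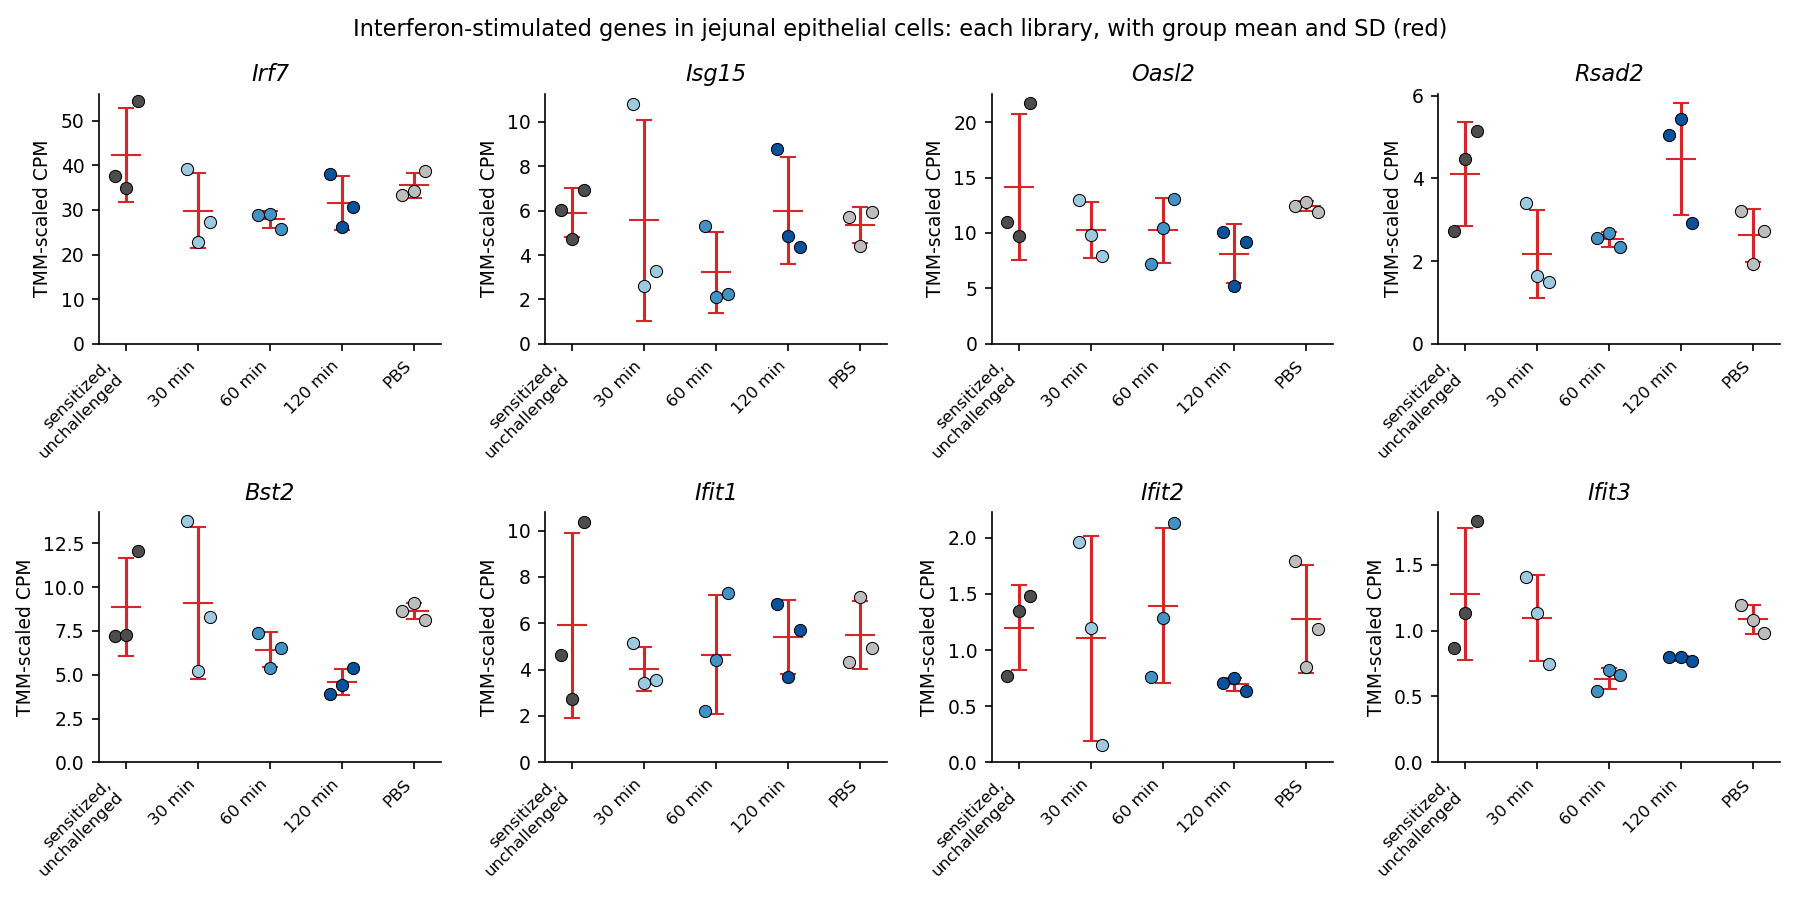
TMM-scaled CPM of each gene in every library, in the sensitized controls, at 30, 60 and 120 min after challenge and in PBS mice. Points are libraries, in replicate order from left to right, and red bars are the group mean and SD (n = 3). The PBS libraries lie close together for most genes, the third sensitized control is the highest library for Irf7, Oasl2, Ifit1 and Ifit3, and the Bst2 points at 120 min lie below those of the sensitized controls.

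Irf7 encodes the transcription factor that amplifies type I interferon production, and was the most abundant of the 8 genes. It lies on chromosome 7 (chr7:141262706-141266481, mm10, minus strand). It had 37.6, 34.9 and 54.5 CPM in the sensitized controls, 39.2, 22.9 and 27.4 CPM at 30 min, 28.8, 29.1 and 25.7 CPM at 60 min, 38.1, 26.1 and 30.7 CPM at 120 min and 33.5, 34.3 and 38.8 CPM in PBS mice. The libraries at 60 min lay below all sensitized controls and all PBS libraries, while those at 30 and 120 min overlapped them. The 60 min estimate against the sensitized controls was a log2 fold change of -0.60 ± 0.20 (SE; unadjusted p = 0.00927, adjusted p = 0.281 by edgeR's quasi-likelihood test). Without sensitized control replicate 3 it was -0.38, with an adjusted p of 0.593 by the same edgeR test. The estimate was -0.50 ± 0.20 at 30 min and -0.42 ± 0.20 at 120 min (edgeR adjusted p = 0.941 and 0.295), and -0.28 and -0.20 without that library. Irf7 overlaps the gene Phrf1 on the opposite strand, and the sources used here do not say whether the library kit kept strand, so reads from the shared stretch cannot be told apart.

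Isg15 encodes a ubiquitin-like protein that is attached to other proteins and is also secreted. Its gene (chr4:156199424-156200818, minus strand) has a single listed transcript. It had 6.05, 4.74 and 6.92 CPM in the sensitized controls, 10.8, 2.59 and 3.30 CPM at 30 min, 5.33, 2.10 and 2.26 CPM at 60 min, 8.76, 4.85 and 4.37 CPM at 120 min and 5.70, 4.42 and 5.94 CPM in PBS mice. The highest library was 30 min replicate 1 and the lowest was 60 min replicate 2, 5.15-fold apart. The groups at 30, 60 and 120 min each overlapped the sensitized controls. The 60 min estimate was -0.86 ± 0.49 on the log2 scale (edgeR adjusted p = 0.490), and those for 30 and 120 min were -0.07 ± 0.48 and 0.02 ± 0.48. Without 30 min replicate 1 the 30 min estimate was -0.99.

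Oasl2 encodes an oligoadenylate synthetase-like protein of mice that, unlike its relative OASL1, keeps enzyme activity, and Rsad2 encodes viperin, an enzyme that makes a chain-terminating nucleotide against viral polymerases. Oasl2 (chr5:114896936-114912234, plus strand) had 11.02, 9.69 and 21.8 CPM in the sensitized controls, 12.96, 9.85 and 7.94 CPM at 30 min, 7.23, 10.5 and 13.1 CPM at 60 min, 10.1, 5.17 and 9.15 CPM at 120 min and 12.4, 12.8 and 11.9 CPM in PBS mice. All libraries at 120 min were below all PBS libraries but overlapped the sensitized controls. Against the sensitized controls the 120 min estimate was -0.79 ± 0.32 (edgeR unadjusted p = 0.0251, adjusted p = 0.214), and it was -0.34 without sensitized control replicate 3. Rsad2 (chr12:26442746-26456452, minus strand) had 2.72, 4.47 and 5.16 CPM in the sensitized controls, 3.41, 1.64 and 1.498 CPM at 30 min, 2.55, 2.69 and 2.33 CPM at 60 min, 5.04, 5.44 and 2.93 CPM at 120 min and 3.21, 1.93 and 2.74 CPM in PBS mice. It was the gene with the largest estimate between unchallenged groups, 0.64 ± 0.37 in sensitized controls against PBS mice (edgeR unadjusted p = 0.1003, adjusted p = 1). Its libraries at 60 min lay below all sensitized controls and below all libraries at 120 min. The estimate at 30 min was -0.90 ± 0.37 (edgeR unadjusted p = 0.0278, adjusted p = 0.941). It was -0.71 without sensitized control replicate 3, -1.38 without 30 min replicate 1 and -1.19 without both libraries that stood apart.

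Bst2 encodes tetherin, a membrane protein that holds budding virus at the cell surface, and plasmacytoid dendritic cells of mice carry much of it. Bst2 (chr8:71534255-71537456, minus strand) had 7.23, 7.27 and 12.1 CPM in the sensitized controls, 13.8, 5.24 and 8.29 CPM at 30 min, 7.39, 5.37 and 6.53 CPM at 60 min, 3.91, 4.43 and 5.36 CPM at 120 min and 8.64, 9.08 and 8.16 CPM in PBS mice. The 3 libraries at 120 min lay below 11 of the 12 libraries of the other groups, all sensitized controls and all PBS libraries included. At 120 min Bst2 averaged 4.57 ± 0.737 CPM, against 8.86 ± 2.79 CPM in the sensitized controls (SD, n = 3 each), a log2 fold change of -0.95 ± 0.30. This had the smallest p of the 8 genes in any comparison with the sensitized controls and missed the threshold (edgeR unadjusted p = 0.00658, adjusted p = 0.128; DESeq2 adjusted p = 0.0509). Without sensitized control replicate 3 it was -0.67, with an edgeR adjusted p of 0.443, and against PBS mice it was -0.92 ± 0.30, with an edgeR adjusted p of 0.128. Siglech, a defining gene of plasmacytoid dendritic cells in mice, had 1.88, 2.29 and 0.225 CPM at 120 min, against 8.71, 4.90 and 5.37 CPM in the sensitized controls. A list of 8 genes taken as markers of these cells summed to 50.5 to 57.1 CPM at 120 min against 90.4 to 156.0 CPM in the sensitized controls. Of the tested markers 6 of 6 had negative estimates, and Cd300c was at 0 in all libraries. Whether the listed genes came from plasmacytoid dendritic cells alone was not tested. Markers of T cells and of B cells and plasma cells, given below, also had negative estimates at 120 min. Klk1 made up most of each sum, and without it the other 7 markers summed to 5.68 to 12.4 CPM at 120 min against 19.2 to 33.97 CPM in the sensitized controls. By edgeR 0 of the 6 passed, against 1.26% of all genes at 120 min, and 5 had an unadjusted p under 0.05, against 17.7%. DESeq2 called 1 of the 6, Spib, lower at 120 min, against 814 of 14968 genes in all, and limma-voom called 0. The part of plasmacytoid dendritic cells in the Bst2 values was not tested.

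Ifit1, Ifit2 and Ifit3 encode proteins with tetratricopeptide repeats that bind viral RNA or one another and hold back its translation, and they lie in a cluster on the plus strand of chromosome 19 (chr19:34640871-34650009, chr19:34550694-34576419 and chr19:34583531-34588731). Ifit1 had 4.61, 2.75 and 10.4 CPM in the sensitized controls, 5.13, 3.41 and 3.55 CPM at 30 min, 2.23, 4.40 and 7.33 CPM at 60 min, 6.83, 3.68 and 5.72 CPM at 120 min and 4.35, 7.15 and 4.96 CPM in PBS mice. Every pair of groups overlapped, and no edgeR estimate for Ifit1 reached an unadjusted p under 0.05. Ifit2 had 0.769, 1.35 and 1.48 CPM in the sensitized controls, 1.97, 1.199 and 0.150 CPM at 30 min, 0.761, 1.29 and 2.13 CPM at 60 min, 0.706, 0.747 and 0.631 CPM at 120 min and 1.79, 0.851 and 1.19 CPM in PBS mice. The libraries at 120 min were close together and below those at 60 min, the sensitized controls and PBS mice. These levels rest on 3 to 49 counts per library, and the 120 min estimate of -0.78 ± 0.66 had an edgeR adjusted p of 0.579. Ifit3 rests on 10 to 35 counts per library and had 0.871, 1.13 and 1.84 CPM in the sensitized controls, 1.40, 1.14 and 0.749 CPM at 30 min, 0.543, 0.698 and 0.666 CPM at 60 min, 0.800, 0.800 and 0.766 CPM at 120 min and 1.195, 1.08 and 0.981 CPM in PBS mice. Its 60 min libraries were the 3 lowest of 15, with a log2 fold change of -0.99 ± 0.44 (edgeR unadjusted p = 0.0369, adjusted p = 0.365; -0.65 without sensitized control replicate 3). Of the stretches of 31 bases in the Ifit3 transcript, 61.8% also occur in Ifit3b, so the division of reads between them is uncertain. The sum of Ifit3 and Ifit3b was 1.02 ± 0.187 CPM at 60 min against 2.04 ± 0.994 CPM in the sensitized controls (SD, n = 3 each), and its 60 min libraries were again below them.

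The forms of transcript behind these sums differed between genes. Isg15, Ifit1, Ifit3 and Bst2 had all their counts on 1 protein-coding transcript. Rsad2 had 92.1% on the protein-coding Rsad2-201. For Oasl2, 46.7% of the counts were assigned to Oasl2-205, which GENCODE classes as a target of nonsense-mediated decay, against 42.8% on the protein-coding Oasl2-201, and the share of Oasl2-205 ran from 22.6% to 69.3% over the libraries. For Irf7, 34.5% went to the protein-coding Irf7-201 and 19.0% to Irf7-210, a form with a retained intron. These shares are Salmon's division of reads among overlapping transcripts and carry no error estimate in the deposited files.

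**Figure D3:**
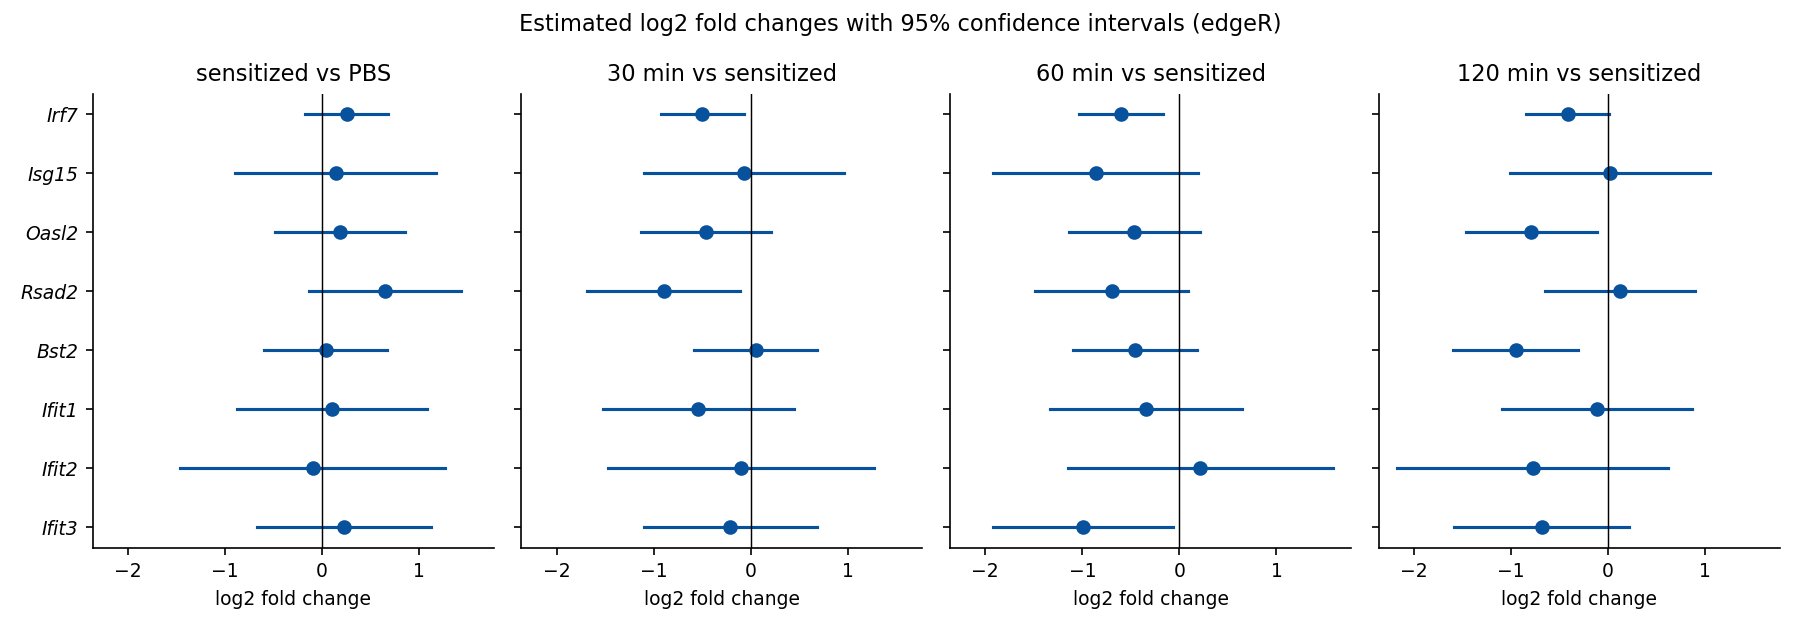
Log2 fold changes of the 8 genes (points) with 95% confidence intervals (lines), from the edgeR fit. Panels show sensitized controls against PBS mice, then 30, 60 and 120 min against the sensitized controls. Intervals are not adjusted for the number of genes tested. The sensitization estimates lie between -0.10 and 0.64, and 7, 7 and 6 of 8 are negative in the 3 challenge panels, where most intervals include 0.

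The first comparison asks whether sensitization alone moved these genes. In sensitized controls against PBS mice 0 of 8 genes passed the threshold (edgeR's quasi-likelihood test, adjusted p under 0.05 by the method of Benjamini and Hochberg, taken across every gene in the fit), as did 0% of the 14968 genes. None of the 8 genes reached an unadjusted edgeR p under 0.05, as 1.42% of all genes did, and DESeq2 and limma-voom called 0 of 8. The 8 estimates ran from -0.10 (Ifit2) to 0.64 (Rsad2), 7 of them positive, with a median of 0.16 against 0.01 for all genes. Without sensitized control replicate 3 that median was -0.18. In no gene did the sensitized controls lie wholly below the PBS libraries, an arrangement that 4.1% of all genes showed. The interval for Irf7, the narrowest of the 8, ran from -0.18 to 0.68 on the log2 scale, and that for Ifit2, the widest, from -1.46 to 1.27. Changes within these ranges could not be resolved with 3 libraries per group.

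At 30 min after challenge 0 of 8 genes passed the threshold against the sensitized controls, by edgeR, DESeq2 or limma-voom, as did 0% of all genes by edgeR. Irf7 and Rsad2 (2 of 8) reached an unadjusted edgeR p under 0.05, as did 5.04% of all genes. Of the 8 estimates 7 were negative, Bst2 being the exception at 0.05 ± 0.30, and their median was -0.33 against 0.01 for all genes. No gene of the 8 had its 30 min libraries wholly below the sensitized controls, against 7.84% of all genes. The median depended on the libraries that stood apart. It was 0.06 without sensitized control replicate 3, -0.74 without 30 min replicate 1 and -0.37 without both.

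At 60 min 0 of 8 genes passed by the same 3 tools, while 0.00668% of all genes, a single gene, did so by edgeR. DESeq2 gave no adjusted p for Ifit2, Ifit3 and Rsad2 here, so that 5 of the 8 could be called by it. Irf7 and Ifit3 (2 of 8) reached an unadjusted edgeR p under 0.05, as did 12.6% of all genes. The median of the 8 estimates was -0.53 against -0.02 for all genes, with Ifit2 the only positive one at 0.21 ± 0.64. Irf7, Rsad2 and Ifit3 (3 of 8) had all libraries at 60 min below all sensitized controls, against 9.14% of all genes. Without sensitized control replicate 3 the median was -0.28, and without 60 min replicate 3 it was -0.64. The epithelial markers summed to 13360 to 15140 CPM at 60 min against 17160 to 17360 CPM in the sensitized controls, with 11 of 11 estimates negative. The 12 proliferation markers summed to 724.5 to 750.2 CPM against 471.3 to 570.3 CPM, with 11 of 12 positive. DESeq2 called Mki67, Top2a and Ccna2 higher at 60 min, against 189 of 14968 genes in all. By edgeR and limma-voom none of the 12 was called (5 with an unadjusted edgeR p under 0.05). Of the T cell markers 12 of 13 had negative estimates, and 4 of 13 without sensitized control replicate 3. The part of these cells in the values of the 8 genes was not tested.

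At 120 min more genes passed the edgeR threshold against the sensitized controls than at 30 or 60 min, with 1.26% of genes (188 of 14968, and 7 without sensitized control replicate 3) past the threshold by edgeR, and 0 of 8 interferon-stimulated genes were among them by edgeR, DESeq2 or limma-voom. Bst2 and Oasl2 (2 of 8) reached an unadjusted edgeR p under 0.05, as did 17.7% of all genes. The median estimate was -0.55 against -0.01 for all genes, with 6 of 8 negative and Isg15 and Rsad2 slightly positive at 0.02 ± 0.48 and 0.12 ± 0.36. Bst2, Ifit2 and Ifit3 (3 of 8) had all libraries at 120 min below all sensitized controls, against 13.3% of all genes. The median was -0.27 without sensitized control replicate 3. The T cell markers summed to 26.3 to 71.9 CPM at 120 min against 70.9 to 281.7 CPM in the sensitized controls, with 13 of 13 tested estimates negative. The B cell and plasma cell markers summed to 24.3 to 59.5 CPM against 122.0 to 237.0 CPM, with 9 of 9 negative (5 of 9 without sensitized control replicate 3). Most of these sums was Jchain, and the other 8 genes summed to 8.48, 11.4 and 4.64 CPM at 120 min against 8.71, 7.0 and 74.7 CPM in the sensitized controls, so that they overlapped. By edgeR 0 genes of either list passed the threshold (5 and 3 had an unadjusted p under 0.05). DESeq2 called 2 of the T cell markers, Cd160 and Nkg7, and 1 of the B cell and plasma cell markers, Jchain, all lower at 120 min. Over all genes it called 814 of 14968 at that time. Of either list limma-voom called 0. None of the 13 T cell markers was at 0 in any library. The epithelial markers summed to 18590 to 19930 CPM at 120 min against 17160 to 17360 CPM in the sensitized controls, with 9 of 11 estimates positive. The proliferation markers summed to 611.2 to 918.2 CPM against 471.3 to 570.3 CPM, with 12 of 12 positive and 7 at an unadjusted edgeR p under 0.05, though 0 were called by edgeR, DESeq2 or limma-voom. The part of these cells in the values of the 8 genes was not tested.

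Set against PBS mice, with the same challenged libraries, the medians of the 8 estimates were -0.22 at 30 min, -0.31 at 60 min and -0.31 at 120 min, and again 0 of 8 genes passed by edgeR at any time, against 0% of all genes at 30 and 60 min and 1.18% at 120 min. The estimates for Isg15 and Ifit3 at 30 min, negative against the sensitized controls, were 0.06 and 0.02 against PBS mice. Of the 8 genes 0, 3 and 4 had all libraries at 30, 60 and 120 min below all PBS libraries. Of all 14968 genes, 529, 1110 and 2082 did so.

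Times after challenge were also compared with each other. Between 120 and 60 min 0 of 8 genes passed by edgeR, DESeq2 (which gave no adjusted p for Ifit2 and Ifit3) or limma-voom, against 1.12% of all genes by edgeR. The genes did not share a direction. Rsad2 had 5.04, 5.44 and 2.93 CPM at 120 min, against 2.55, 2.69 and 2.33 CPM at 60 min, with an estimate of 0.82 ± 0.37 (edgeR unadjusted p = 0.041, adjusted p = 0.232). Rsad2 alone (1 of 8) had an unadjusted edgeR p under 0.05, as did 19.7% of all genes. Rsad2 and Ifit3 (2 of 8) had all 120 min libraries above all 60 min libraries, as 10.2% of all genes did, and Bst2 and Ifit2 (2 of 8) had all of them below, as 9.78% of all genes did. In a joint test over the 5 groups 0 of 8 genes passed by edgeR, DESeq2 or limma-voom, against 0.347% of all genes by edgeR, and the smallest adjusted p among the 8 was 0.256, for Bst2. Bst2 and Rsad2 (2 of 8) had an unadjusted edgeR p under 0.05 in that test, as did 15.7% of all genes.

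Levels of the 8 genes also differed between libraries of the same group. Over all 15 libraries the highest and lowest were 2.38-fold apart for Irf7, between 3.38- and 5.15-fold apart for Ifit3, Bst2, Rsad2, Oasl2, Ifit1 and Isg15, and 14.2-fold apart for Ifit2, whose lowest library holds 3 counts. The biological coefficient of variation within groups ran from 0.181 (Irf7) to 0.512 (Ifit2), with a median of 0.308, against a median of 0.204 over all genes tested. Sensitized control replicate 3 was the highest of the 15 libraries for Irf7, Oasl2, Ifit1 and Ifit3 (4 of 8) and among the top 3 for 7 of 8. Library 30 min replicate 1 was the highest for Isg15 and Bst2 and among the top 3 for 6 of 8. The mean of the standardized log2 CPM of the 8 genes was 1.64 in sensitized control replicate 3 and 1.02 in 30 min replicate 1, and lay between -0.97 and 0.42 in the other libraries. These libraries also had the highest summed T cell markers, and sensitized control replicate 3 the highest mitochondrial share of its group, as given above. The part of either in the levels of the 8 genes was not tested.

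**Figure D4:**
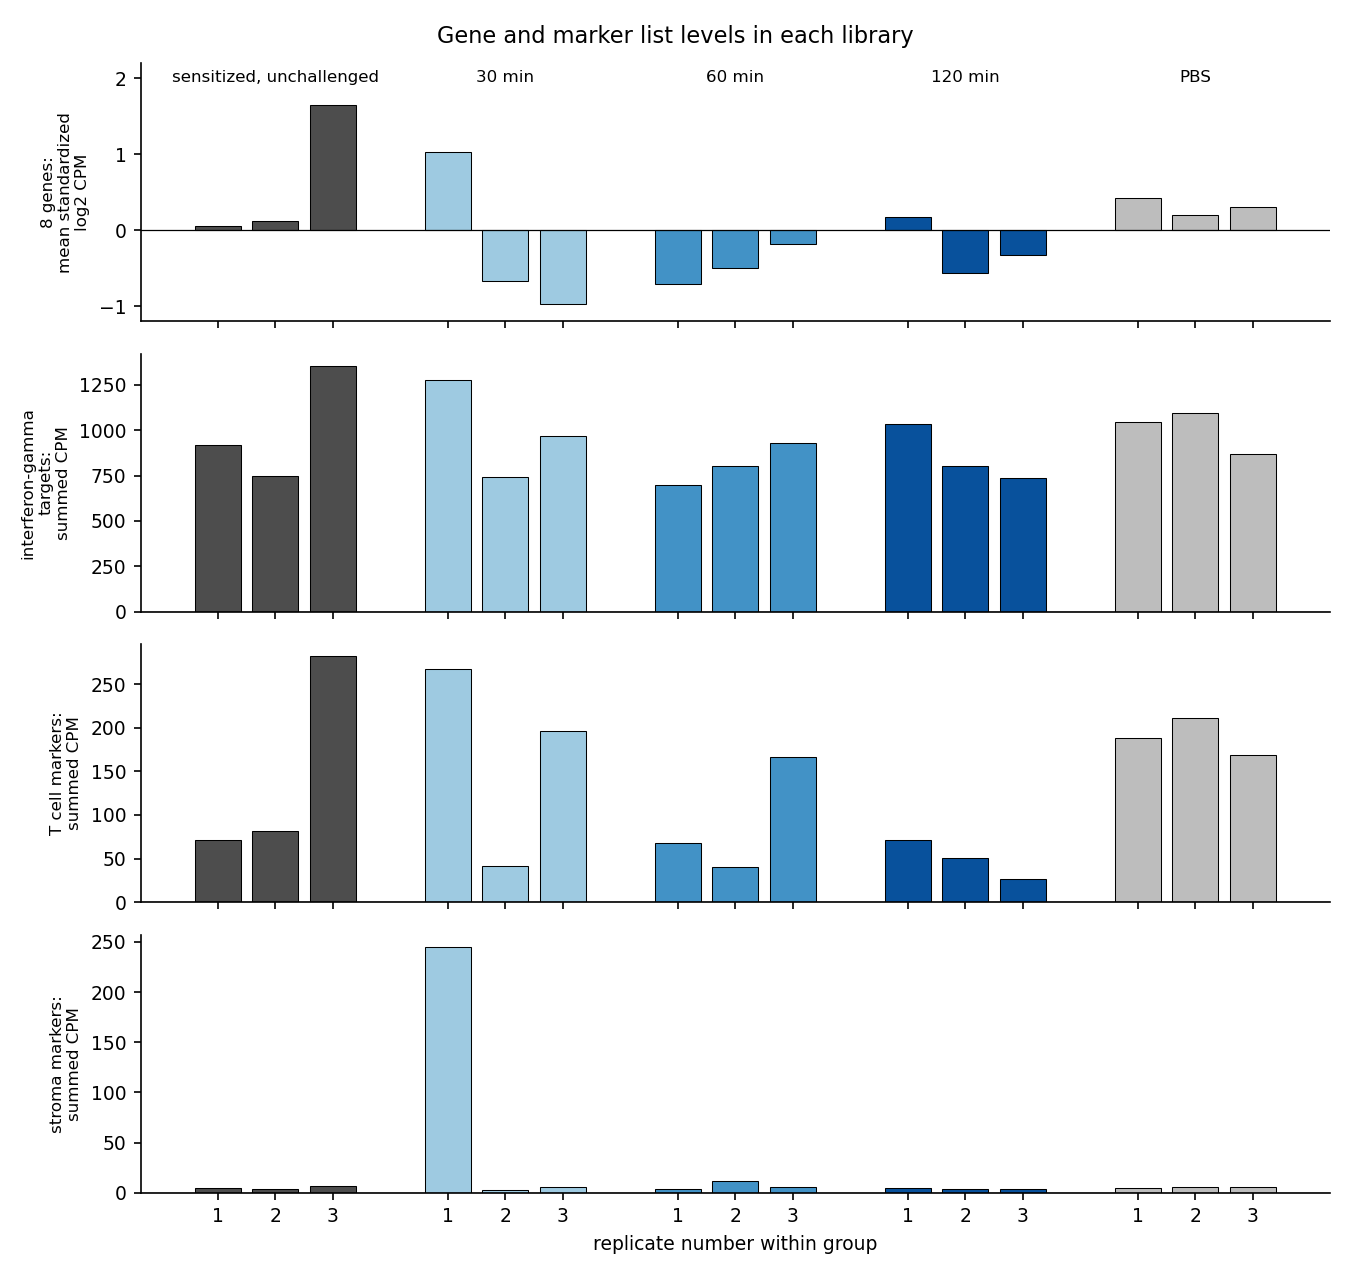
Levels in each library, grouped and numbered by replicate. From the top, the mean standardized log2 CPM of the 8 genes, and the summed CPM of 32 interferon gamma target genes, of 13 T cell markers and of 12 stromal and endothelial markers. Sensitized control replicate 3 and 30 min replicate 1 are the highest in the upper 3 panels, and the stromal markers are high in 30 min replicate 1 alone.

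Genes with a pattern like that of the 8 were sought among 11464 other genes with a mean of at least 2 CPM, by Pearson correlation with the mean standardized level of the 8 over the 15 libraries. The closest was Ube2l6 (r = 0.88, Spearman's rho = 0.829), the conjugating enzyme that passes ISG15 to its targets, and the third closest was Uba7 (r = 0.833, rho = 0.871), the enzyme that activates ISG15. Ube2l6 had 13.3, 11.1 and 21.3 CPM in the sensitized controls, 13.9, 8.14 and 9.79 CPM at 30 min, 7.99, 10.7 and 8.66 CPM at 60 min, 14.2, 7.63 and 9.78 CPM at 120 min and 12.1, 11.9 and 12.2 CPM in PBS mice. As for Irf7, the third sensitized control was the highest library. The others of the 10 closest were Cpne2 (0.875), Abca7 (0.829), 2210407C18Rik (0.817), Crlf2 (0.814), Samsn1 (0.799), the guanylate-binding protein gene Gbp7 (0.786), Spire1 (0.784) and Stat2 (0.783), which encodes a transcription factor of type I and III signalling. Without the 2 libraries whose mean lay farthest from the median, sensitized control replicate 3 and 30 min replicate 3, r was 0.832 for Ube2l6, 0.872 for Uba7 and between 0.636 and 0.88 for the 10. Library 30 min replicate 1, with a mean of 1.02, was kept there. Correlations without both libraries that stood apart were not computed. These are the highest of many correlations over points that share library depth and composition, and they carry no test.

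Counts for the interferons themselves were at or near 0. Of 19 genes for type I and type III interferons 14, Ifnb1 among them, had 0 counts in all 15 libraries, which allows up to 0.132 to 0.192 CPM per library (3 counts of the library's total, counting error only). The other 5 had 16 counts in all, 7 of them Ifna13 counts in 60 min replicate 3 alone. Ifng, the interferon gamma gene, had 0, 5 and 22 counts in the sensitized controls, 17, 0 and 19 at 30 min, 1, 0 and 0 at 60 min, 7, 0 and 0 counts at 120 min and 17, 11 and 8 counts in PBS mice. It was thus found in all PBS libraries and in 2 of 3 libraries of the sensitized controls and at 30 min, and at 60 min only as 1 count. Its edgeR adjusted p was 0.338 at 60 min and 0.425 at 120 min against the sensitized controls.

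Genes listed here as interferon gamma targets had a median biological coefficient of variation of 0.537 over 29 tested genes of 32 listed, against 0.308 for the 8 genes. As given above, 13 of 22 of their promoter windows also carried the core GAAANNGAAA, so the list does not set interferon gamma apart from the other interferons. Igtp, a guanosine triphosphatase against intracellular parasites, had 4.51, 2.91 and 42.8 CPM in the sensitized controls, 35.1, 3.98 and 16.7 CPM at 30 min, 3.64, 7.20 and 9.99 CPM at 60 min, 25.9, 5.55 and 4.15 CPM at 120 min and 16.1, 16.7 and 6.40 CPM in PBS mice. It was high in sensitized control replicate 3, in 30 min replicate 1 and in 120 min replicate 1. That last library was also the highest of its group for Isg15, Irf7, Ifit1 and Oasl2. It was the lowest of the 15 libraries for Bst2 (3.91 CPM). It lay below 120 min replicate 2 for Rsad2 (5.04 against 5.44 CPM) and Ifit2 (0.706 against 0.747 CPM), and Ifit3 had 0.800 CPM in both. Of the 29 genes 23 had positive estimates at 30 min, 2 at 60 min and 1 at 120 min against the sensitized controls, with medians of 0.21, -0.53 and -0.48. At these times 0 passed by edgeR, against 0%, 0.00668% and 1.26% of all genes, and 0 by DESeq2 or limma-voom. An unadjusted edgeR p under 0.05 was reached by 1, 2 and 3 of the 29, against 5.04%, 12.6% and 17.7% of all genes. DESeq2 gave no adjusted p for 17 of them at 60 min and for 3 at 120 min. In the joint test over the 5 groups DESeq2 called 3 of them, Cxcl11, Gbp8 and Psmb9, against 1092 of 14968 genes in all. There edgeR and limma-voom called 0 of the 29. The medians were 0.83, 0.19 and 0.15 without sensitized control replicate 3, with 27, 17 and 19 of 29 estimates positive.

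**Figure D5:**
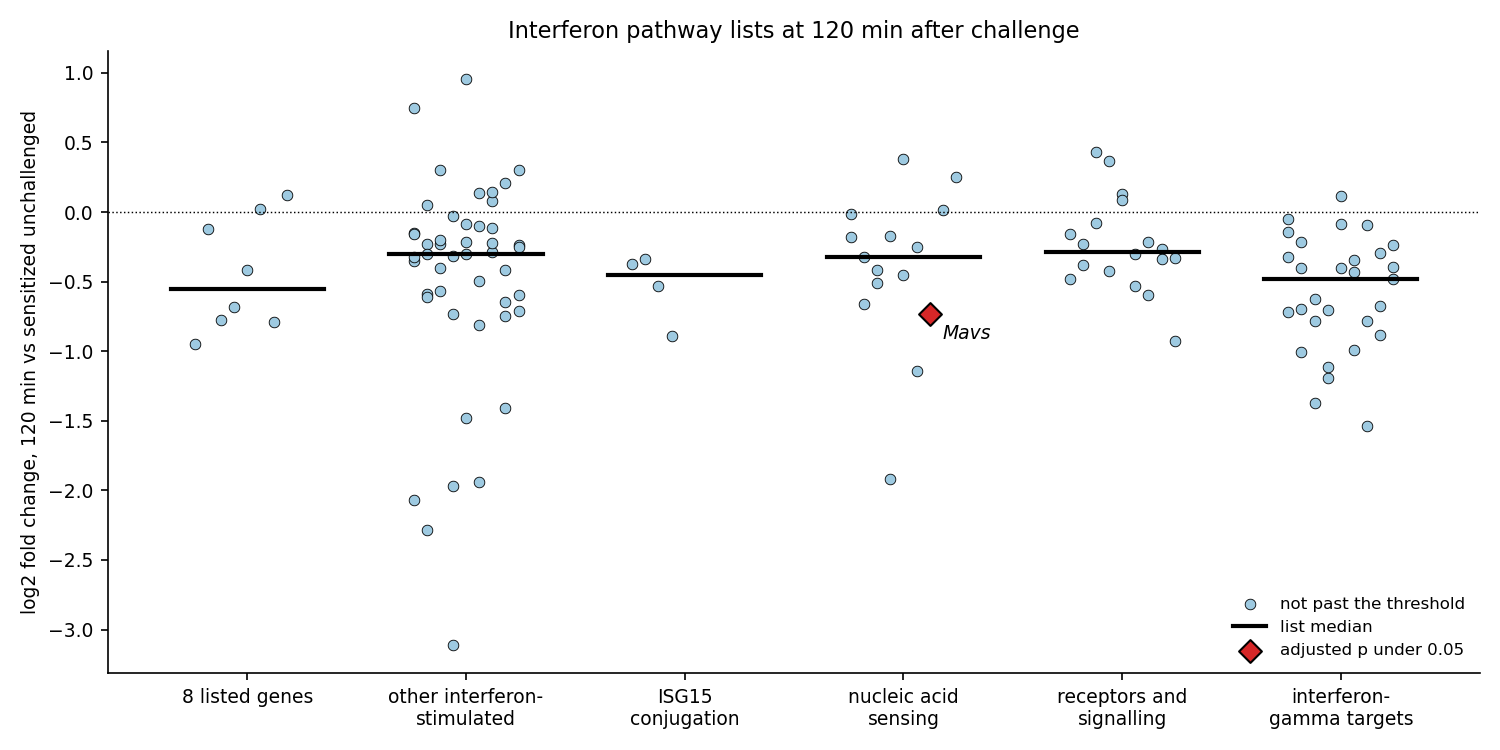
Log2 fold changes at 120 min against the sensitized controls for every tested gene of the 8 listed genes and of 5 interferon pathway lists, with the list median as a bar. The median of every list is below 0 (that of the interferon gamma targets is 0.15 without sensitized control replicate 3), and Mavs, marked in red, is the only gene past the threshold.

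The rest of the pathway was followed with lists of 49 other interferon-stimulated genes (47 tested), 5 genes of ISG15 conjugation and removal (4 tested), 18 genes of nucleic acid sensing (15 tested) and 18 genes of interferon receptors and signalling (18 tested). Only 1 gene of these lists passed the threshold in any comparison by edgeR. This was at 120 min, where 1.26% of all genes passed against the sensitized controls and 1.18% against PBS mice. Mavs, which encodes the mitochondrial adaptor of the RNA sensors RIG-I and MDA5, had 30.7, 37.2 and 31.6 CPM at 120 min, against 52.1, 50.1 and 63.5 CPM in the sensitized controls. Mavs had 48.1, 46.6 and 43.4 CPM at 30 min, 38.0, 47.0 and 53.7 CPM at 60 min and 53.8, 66.2 and 51.7 CPM in PBS mice. The 120 min libraries were the 3 lowest of the 15. Mavs fell by 0.74 ± 0.15 on the log2 scale at 120 min against the sensitized controls, with an adjusted p of 0.029 by edgeR's quasi-likelihood test, and by 0.79 against PBS mice, with an adjusted p of 0.0259 by the same test. The call was lost without sensitized control replicate 1, 2 or 3 (edgeR adjusted p = 0.0712, 0.0792 and 0.147), without 120 min replicate 1 or 3 (0.107 and 0.097) and without both libraries that stood apart (0.168). The estimate stayed between -0.84 and -0.62 when any library was left out. DESeq2 and limma-voom also called Mavs at 120 min, and limma-voom called no other gene of these lists in any comparison. DESeq2 called more genes over the whole table, 189 of 14968 at 60 min and 814 at 120 min. It gave no adjusted p for 20 of the 47 other interferon-stimulated genes at 60 min and for 5 at 120 min. Of the 47 it called 2 at 60 min (Oasl1 and Ifi27l2b) and 3 at 120 min (Dtx3l, Samhd1 and Sp100). Of the 18 receptor and signalling genes it called 1 at 120 min, the interferon gamma receptor chain gene Ifngr2. All of these were lower than in the sensitized controls. Between 120 and 60 min DESeq2 called Oasl1 and Jak2 higher and Dtx3l, Rnf213, Tlr3 and Mavs lower at 120 min, against 937 of 14968 genes in all. Library 60 min replicate 3 was the lowest of its group for Oasl1 and Jak2 and the highest for Dtx3l, Rnf213, Tlr3 and Mavs. Rnf213, for example, had 71.9, 88.3 and 144.5 CPM at 60 min and 56.4, 68.7 and 52.5 CPM at 120 min. Without that library edgeR called 2 genes over the whole table in this comparison, against 168 with it. In the joint test DESeq2 called Oasl1, Ifi27l2b, Slfn8, Mavs, Ifngr2 and Jak2, against 1092 of 14968 genes in all.

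At 120 min 38 of 47 other interferon-stimulated genes had negative estimates (median -0.30), as did 4 of 4 conjugation genes (median -0.45), 12 of 15 sensing genes (median -0.32) and 14 of 18 receptor and signalling genes (median -0.28), against 7594 of 14968 genes in all (median -0.01). At 60 min negative estimates were found for 35 of 47, 4 of 4, 10 of 15 and 18 of 18 genes of these lists, with medians of -0.28, -0.44, -0.13 and -0.28, and at 30 min for 33 of 47, 4 of 4, 10 of 15 and 12 of 18, with medians of -0.11, -0.27, -0.12 and -0.08. For sensitization the counts were 27 of 47, 3 of 4, 8 of 15 and 6 of 18. Without sensitized control replicate 3 the negative estimates at 120 min numbered 31 of 47, 4 of 4, 13 of 15 and 12 of 18, with medians of -0.16, -0.21, -0.12 and -0.13. Without it they numbered 26 of 47, 3 of 4, 8 of 15 and 12 of 18 at 60 min, with medians of -0.03, -0.23, -0.07 and -0.10. At 30 min they numbered 20 of 47, 2 of 4, 8 of 15 and 9 of 18 without it, with medians of 0.10, -0.10, -0.01 and -0.01, and for sensitization 38 of 47, 3 of 4, 10 of 15 and 10 of 18. All comparisons with the sensitized controls share those 3 libraries, replicate 3 included.

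Where no gene of the lists passed by edgeR, those with the smallest p are given. Oasl1, a mouse relative of Oasl2 that represses translation of Irf7, had 18.5, 13.003 and 15.2 CPM at 30 min, 17.0, 15.6 and 9.99 CPM at 60 min and 24.9, 24.2 and 22.4 CPM at 120 min, against 21.01, 25.8 and 32.4 CPM in the sensitized controls and 22.2, 21.9 and 27.6 CPM in PBS mice. All libraries at 30 and 60 min were below all unchallenged libraries, and those at 120 min overlapped them. Of all 14968 genes, 1173 at 30 min and 1368 at 60 min lay wholly below the sensitized controls, and 529 and 1110 wholly below PBS mice. The Oasl1 estimates were -0.76 ± 0.20 at 30 min, -0.89 ± 0.20 at 60 min and -0.15 ± 0.20 at 120 min, with edgeR adjusted p of 0.890, 0.175 and 0.756, and the difference between 120 and 60 min was 0.75 ± 0.20 with an edgeR adjusted p of 0.0799. The next smallest at 30 min were Helz2 (-0.55 ± 0.15) and Ifi27l2b (-0.57 ± 0.16), both with an edgeR adjusted p of 0.941. At 60 min they were Ifi27l2b (-0.63 ± 0.16) and Stat2 (-0.67 ± 0.18), with edgeR adjusted p of 0.202 and 0.221. Between 120 and 60 min Rnf213 (-0.78 ± 0.22, edgeR adjusted p = 0.0927) and Mavs (-0.48 ± 0.15, edgeR adjusted p = 0.105) followed. For sensitization they were Ifnlr1, the specific chain of the type III interferon receptor (0.48 ± 0.22), Slfn5 (-1.38 ± 0.65) and Ifi35 (0.23 ± 0.13), each with an edgeR adjusted p of 1. In the joint test over the 5 groups they were Mavs, Oasl1 and Jak2, with edgeR adjusted p of 0.0799, 0.0929 and 0.125.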

How the data were processed

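Libraries of polyadenylated RNA were assigned to groups by the labels, 3 per group, and nothing in the labels pairs them. No title number recurs, so 15 mice were assumed and p-values measure the spread between them. The submitters' processing notes name cutadapt 1.18, Salmon 1.2.1 and mm10; which release of transcripts was indexed is not stated in what was used here. Per the file headers, the deposited tables hold for each of 139058 transcripts the estimated count, the TPM made by the authors, and lengths in bases.

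Transcripts were summed to genes with GENCODE M21 (137943 matched, 1115 did not and held 0.374% to 0.602% of the counts), and the sums were rounded to whole numbers. Genes were filtered with filterByExpr, which left 14968, and scaled by TMM. One edgeR 4.0.16 fit (R 4.3.3; estimateDisp and glmQLFit, robust, then glmQLFTest) took all 15 libraries and the 5 group means, leaving 10 residual degrees of freedom, and p-values were adjusted over all genes tested by Benjamini and Hochberg at a threshold of 0.05. Each SE was back-calculated as the absolute log2 fold change divided by the square root of the F statistic. The 95% intervals were built from these SEs with t quantiles. Salmon divides reads among similar transcripts, so Ifit3 depends on its division with Ifit3b, and Ifit2 and Ifit3 rest on few counts. Of their stretches of 31 bases, Ifit1 shares 10.7% with other genes (9.14% with Ifit1bl2) and Isg15 12.8% (10.2% with AC151275.1). For Oasl2, Rsad2, Irf7, Bst2 and Ifit2 at most 0.75% is shared. Alternatives were DESeq2 1.42.0, limma-voom (limma 3.58.1), other scalings and filters, a transcript length offset, PBS mice as controls and leaving out each library. All 8 genes are named in every comparison, and from each pathway list those past the threshold or else the 3 with the smallest p. Promoter windows and motif matches used the RefSeq table of GRCm38.p6. Python 3.11.15 with pandas 2.3.3, numpy 2.4.6 and matplotlib 3.10.9 joined tables and drew figures. The 8 genes and all lists were chosen with earlier results of these data known.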

Additional observations from a re-analysis of the deposited data

How the results depend on the processing

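For every comparison, 0 of the 8 genes passed under each alternative run. The smallest adjusted p over these alternatives were 0.0509 (Bst2 at 120 min, DESeq2), 0.0924 (the joint test, DESeq2), 0.101 (120 against 60 min without 60 min replicate 1), 0.132 (60 min, DESeq2), 0.666 (30 min, only the groups compared in the fit) and 0.999 or more (sensitization). DESeq2 gives no adjusted p for some genes of low count, and these stay out of its calls. No paired analysis was possible because the titles share no replicate numbers. Estimates near 0 turned sign under some settings. With limma-voom the sensitization estimates of Ifit1 and Bst2 were -0.142 and -0.0377, and the 120 min estimates of Isg15 and Ifit1 were -0.0131 and 0.134. With the length offset the Bst2 estimate for sensitization was -0.00923. With PBS mice as controls the 30 min estimates of Isg15 and Ifit3 were 0.0648 and 0.0191. The cause was not tested. DESeq2 called Mavs between 120 and 60 min (-0.48, adjusted p = 0.0411).

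Leaving out each library in turn moved these estimates across 0. For sensitization they ran from -0.573 to 0.439 for Ifit1, from -0.317 to 0.226 for Ifit2, from -0.115 to 0.439 for Ifit3, from -0.259 to 0.391 for Oasl2, from -0.250 to 0.157 for Bst2 and from -0.164 to 0.0656 for Mavs. At 30 min they ran from -0.992 to 0.267 for Isg15, from -0.875 to 0.134 for Ifit1, from -0.847 to 0.413 for Ifit2, from -0.429 to 0.134 for Ifit3 and from -0.374 to 0.336 for Bst2. At 60 min they ran from -0.817 to 0.331 for Ifit1 and from -0.212 to 0.531 for Ifit2. At 120 min they ran from -0.372 to 0.208 for Isg15, from -0.470 to 0.556 for Ifit1 and from -0.116 to 0.349 for Rsad2. Between 120 and 60 min they ran from -0.142 to 0.692 for Ifit1 and from -0.00764 to 0.277 for Irf7. The omission of sensitized control replicate 3 together with 30 min replicate 1 was chosen after seeing the data.

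The number of genes called over the whole table moved with the tool and the settings. DESeq2 called 6, 6, 189, 814, 937 and 1092 genes for sensitization, 30, 60 and 120 min, 120 against 60 min and the joint test, where edgeR called 0, 0, 1, 188, 168 and 52. With no filter on low counts edgeR called 49 genes at 60 min, 279 between 120 and 60 min and 380 in the joint test. With the length offset it called 0, 34, 46 and 12 genes at 60 min, at 120 min, between 120 and 60 min and in the joint test, and limma-voom called 0, 167, 179 and 26 there. With only the groups compared in the fit, edgeR called 0 genes at 60 min, 113 at 120 min and 0 between 120 and 60 min. Leaving out 1 library gave 0 to 409 genes at 60 min, 7 to 362 at 120 min, 0 to 1194 between 120 and 60 min and 0 to 208 in the joint test. Depth limits Ifit2 and Ifit3 most.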
